A study of Rattus norvegicus with 23 samples.

Results

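A set of 130 genes, of 32494 in the count files, was higher in control aggregates at 6 hours than at 0 hours. Membership was set on CPM, read counts scaled to 1000000 reads in genes, which are not corrected for gene length. A gene entered when its mean was at least 2 CPM over the 3 control libraries of 0 hours and the 3 of 6 hours, its lowest 6-hour value was above its highest 0-hour value, and its 6-hour mean was at least 1.5 times its 0-hour mean. Hmox1 (ENSRNOG00000014117, heme oxygenase 1, which breaks down heme), with means of 9.58 CPM at 0 hours and 59.2 CPM at 6 hours, was left out of the set by choice. The 130 genes were thus chosen on the difference between 0 and 6 hours in controls, and that difference is given only as a description, with no test. The question followed here is whether they went back to their 0-hour level at 12 and 24 hours, with and without sepiapterin.

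The aggregates were made from brain cells of Sprague Dawley rats of embryonic day 15 and grown under constant agitation, with the medium renewed every 3 days, for 14 days. Groups of 3 libraries were control (PBS) at 0, 6, 12 and 24 hours (T0, T6, T12 and T24) and 120 ng/ml sepiapterin at 6, 12 and 24 hours. A further 2 libraries repeated T12 controls, which gives 23 libraries in all. The labels put T6 and T12 in a first library batch and T24 with the repeated T12 controls in a second. They give no batch for T0, so time and library batch cannot be told apart in any reading against T0. They do not say either whether replicates came from separate cultures, and p-values here cover the spread among the libraries, part or all of which may be technical.

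Sepiapterin is a pterin that cells take up and convert through the salvage route to tetrahydrobiopterin, which nitric oxide synthases and the hydroxylases of phenylalanine, tyrosine and tryptophan need as a cofactor. Reaggregated embryonic brain cells form small spheres in which neurons and glia mature together. Genes that respond within hours to a change around the cell commonly follow either a brief course, with early factors switched on and off again, or a lasting one, in which a new level is held. The count files name genes by Ensembl identifier only, and 0 of the 32494 identifiers could be paired with a symbol in the RefSeq gene table used. The members are therefore given by identifier, their functions are not described, 31 gene and cell type marker lists could not be counted, and the labelled tissue was not checked against markers. Since these are bulk samples, fewer cells of a type and less RNA per cell cannot be told apart.

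Each library held between 16991417 and 26588314 reads in genes, and all 130 members passed the filter on low counts that left 14035 genes for testing. Among T0 controls, replicate 1 stood apart for these genes. It was the highest T0 library for 75 of the 130 members, and its median over members was 0.09 above the T0 mean on the log2 scale, against -0.05 and -0.06 for the other 2 libraries. Chosen without that library, the set held 224 genes, of which 113 were among the 130. The libraries titled as T12 control replicates 1 and 2 carry in their file headers the numbers of the repeated libraries, and the repeats carry theirs. They were grouped by title, and results that move when they are grouped by header are given with both values.

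Most members exceeded the 1.5-fold limit by little. The ratio of T6 to T0 control means ran from 1.504 to 21.6 with a median of 1.61, while 56 members were under 1.6, 14 were at 2 or more and 3 were at 3 or more. The 2 members nearest the limit were ENSRNOG00000011424 with a ratio of 1.504 and ENSRNOG00000007755 with 1.505. Just outside it were ENSRNOG00000010636 at 1.49999 and ENSRNOG00000007510 at 1.498, and 2991 genes met the other requirements without regard to the ratio. The mean T6 control value was under 5 CPM for 27 members, between 5 and 50 CPM for 77 and at 50 CPM or more for 26.

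The same genes stood almost as high at 6 hours in the sepiapterin libraries, which took no part in the choice. The median member was 1.57 times its T0 mean there, or 0.65 on the log2 scale, beside 0.69 in T6 controls. Over the 11961 genes with a mean of at least 2 CPM the corresponding medians were 0.04 and 0.03. All 3 T6 sepiapterin libraries were above all 3 T0 libraries for 121 of 130 members (93.1%), where 23.1% of the genes tested showed this. As T0 entered the choice, nothing is read from that excess.

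By 24 hours the set stood part of the way back towards T0. The median log2 difference to T0 was 0.53 in T12 controls, 0.54 in the repeated T12 controls and 0.43 in T24 controls, which is 1.35 times T0 at the last time. With sepiapterin it was 0.61 at T12 and 0.44 at T24. In the same groups the median over the 11961 genes stayed between -0.00 and 0.02. The 3 T24 control libraries gave 0.49, 0.40 and 0.41, and the 3 T24 sepiapterin libraries 0.44, 0.44 and 0.51. All 6 thus lay below every T6 library, which ran from 0.63 to 0.71, and above every T0 library. The T0 and T6 control libraries chose the genes. Part of the distance below T6 controls may come from that choice, which was not tested.

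**Figure D1:**
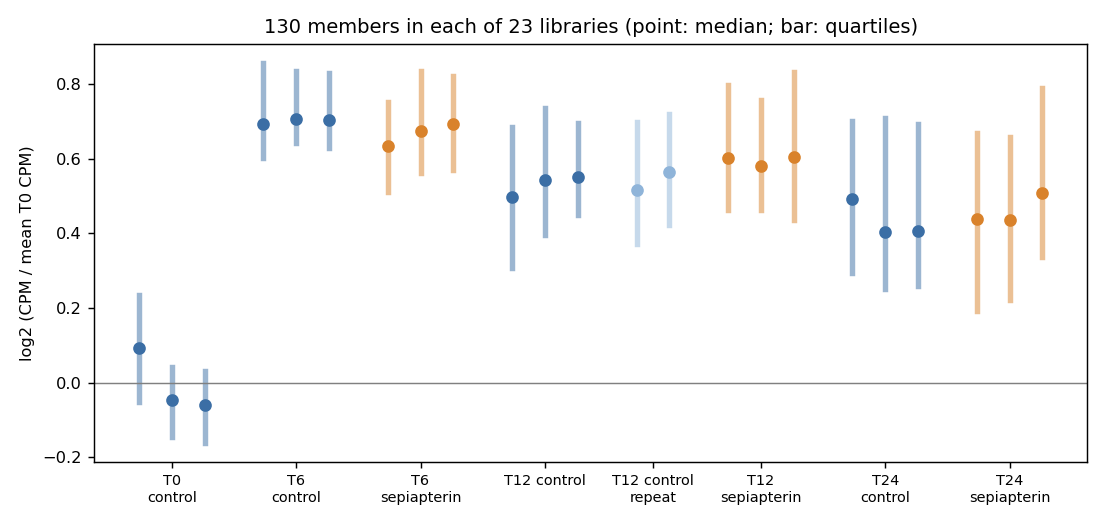
Median (point) and quartiles (bar) over the 130 members of log2 CPM relative to the T0 mean, for each of 23 libraries, with controls in blue, repeated T12 controls in light blue and sepiapterin in orange. The T6 medians lie between 0.63 and 0.71, and the T24 medians between 0.40 and 0.51.

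As a share of all gene reads the set took 0.2553% to 0.2795% at T0 and in T6 controls 0.431% to 0.438%. The T6 sepiapterin libraries spent 0.4115% to 0.420% on it. The T24 controls spent 0.386% to 0.397% of their gene reads on these genes, and the T24 sepiapterin libraries 0.388% to 0.405%. The ranges of the treated and control libraries overlapped at T24.

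Few members had a mean back at T0 by the end, in a placement that uses the T0 and T6 control libraries of the choice. The placement thus describes the set, is no test of it, and has no matching count over all genes. For each member the group mean was placed against its own T0 and T6 control libraries, and counted as back at T0 when it was at or below the highest T0 library and as still at T6 when it was at or above the lowest T6 control library. In T24 controls 21 members were back at T0, 34 were still at T6 and 75 lay between. With sepiapterin at T24 the counts were 21, 38 and 71. At T12 the controls had 8 back, 38 still up and 84 between, the repeated controls 9, 47 and 74, and the sepiapterin group 4, 56 and 70. In T6 sepiapterin no member was back at T0, 74 reached the T6 control range and 56 lay between.

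These counts lean on single libraries. Without T0 replicate 1, whose values were often the highest of T0, the members back at T0 at T24 were 10 in controls and 13 with sepiapterin. At T12 the controls had 5 such members without T0 replicate 1 or T0 replicate 3 and 15 without T12 control replicate 3. The T12 sepiapterin count was 1 without T0 replicate 3, 8 without T12 sepiapterin replicate 1 and 7 without T12 sepiapterin replicate 3.

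**Figure D2:**
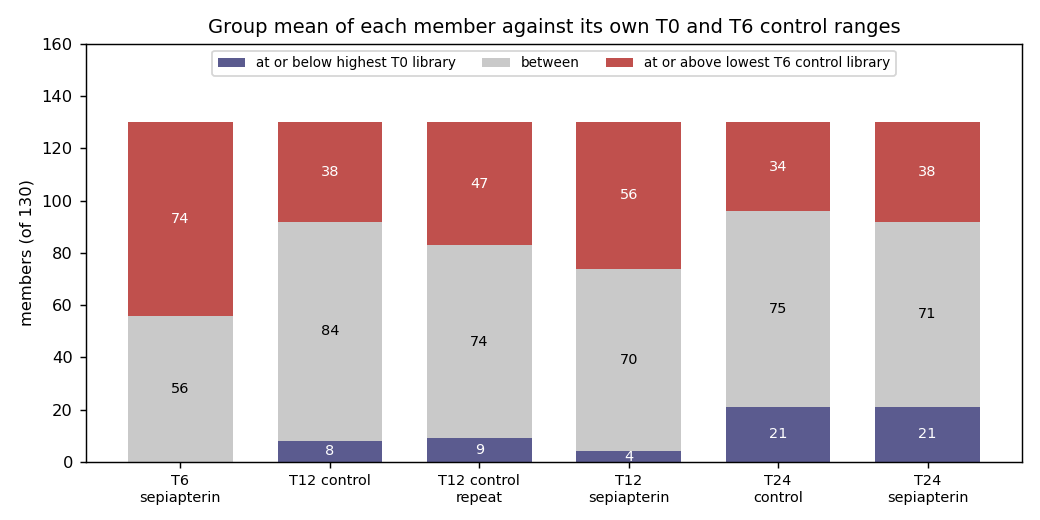
Number of the 130 members whose group mean was at or below their highest T0 library, at or above their lowest T6 control library, or between, in each later group. The lowest block grows from 8 and 4 members at T12 to 21 and 21 at T24.

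Read library by library, the picture was of genes held above T0. All 3 libraries of a group exceeded all 3 T0 libraries for 107 members in T12 controls (82.3%, against 18.5% of genes tested) and for 112 with sepiapterin at T12 (86.2%, against 19.6%). The count was 114 for the 2 repeated T12 controls (87.7%, against 24.4%). At T24 it was 90 in controls (69.2%, against 16.7%) and 91 with sepiapterin (70.0%, against 15.7%). For 69 members (53.1%, against 4.86%) each of the 17 libraries that took no part in the choice was above every T0 library. Seen from the other side, all 3 libraries were below all 3 T6 controls for 60 members in T12 controls (18.0% of genes tested) and for 75 in T24 controls (27.0%). With sepiapterin this held for 19 members at T6 (3.98%), 45 at T12 (20.0%) and 72 at T24 (25.8%), and for the 2 repeated T12 controls for 69 (22.4%). All of these counts use T0 or T6 control libraries that chose the genes, so they describe the set and are not tests of it.

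The share of the rise left was taken as a member's log2 difference to T0 in a later group divided by that in T6 controls, so that 1 stands for the T6 control mean and 0 for the T0 mean. Its median over members was 0.94 in T6 sepiapterin. It was 0.76 in T12 controls, 0.78 in the repeats and 0.85 with sepiapterin at T12. At T24 it was 0.61 in controls (0.56 to 0.71 over the libraries) and 0.61 with sepiapterin (0.58 to 0.73). The quartiles at T24 in controls were 0.39 and 0.94, so the genes differed widely in how much they kept. The mean fell below that of T0 for 6 members in T24 controls and 7 with sepiapterin, and exceeded that of T6 controls for 22 and 26. T0 and T6 control libraries entered the choice, so the share left describes the set and is no test of it.

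**Figure D3:**
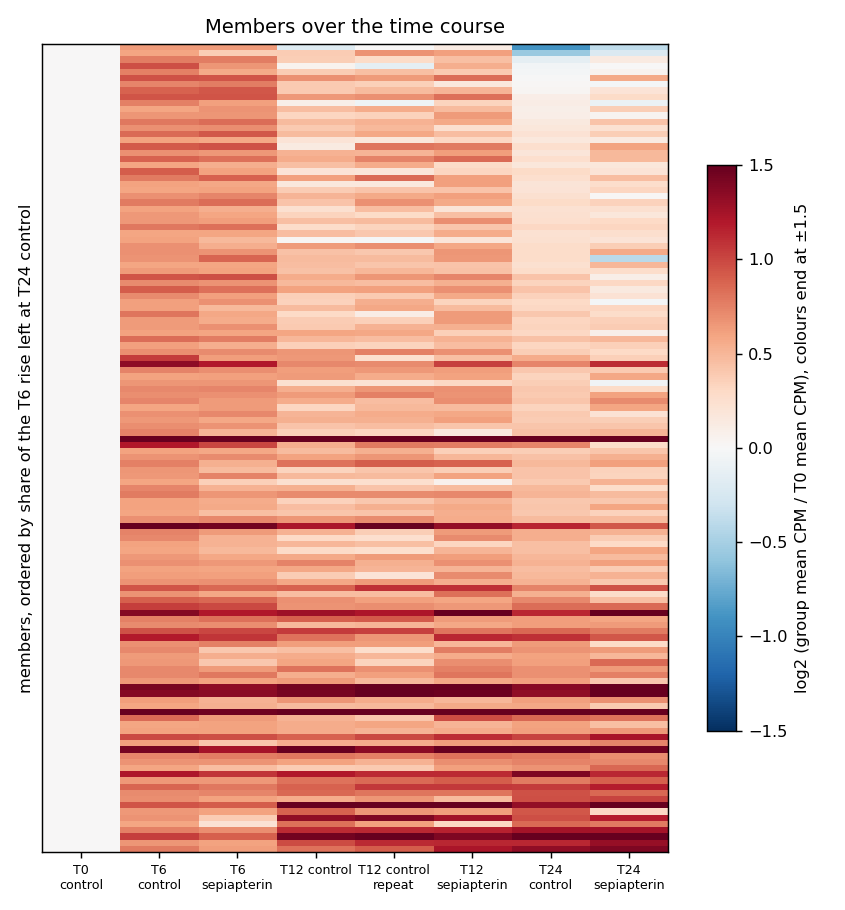
Log2 ratio of the group mean CPM to the T0 mean (colour, ending at 1.5 in either direction) for the 130 members in rows and 8 groups in columns, ordered by the share of the T6 rise left in T24 controls. The topmost rows are pale or blue at T24, the bottom rows as dark as at T6 or darker.

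In controls 97 members were highest at T6, 16 at T12 and 17 at T24. The means were lower at each step after T6 for 67 members and higher at each step for 8. In the sepiapterin series 73 were highest at T6, 34 at T12 and 23 at T24, with 64 lower and 17 higher at each step. The choice of genes was made on high values in the T6 controls and not on the T6 sepiapterin libraries.

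Placement at T12 did not fix placement at T24. Of the 38 members still at T6 in T12 controls, 22 were there at T24 and 16 had moved to the range between, and 0 were back at T0. Of the 84 in between, 57 stayed, 16 were back at T0 and 11 were in the T6 range. At T24, 94 of the 130 members had the same placement with and without sepiapterin. Of the 21 members back at T0, 11 were shared between controls and sepiapterin, 52.4% of each. The 27 members still at T6 in both were 79.4% of the 34 in controls and 71.1% of the 38 with sepiapterin.

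The members back at T0 in T24 controls had fewer reads. Their median T6 control value was 5.20 CPM, against 21.3 CPM for those between and 19.5 CPM for those still at T6. Of the 27 members under 5 CPM at T6, 10 were back at T0 and the median share left was 0.48, while of the other 103, 11 were back and the median share was 0.67. Replicate 1 of T0 exceeded the mean of the other 2 T0 libraries by a median ratio of 1.24 for members back at T0, 1.06 for those between and 1.29 for those still at T6. The part of read depth and of T0 replicate 1 in the placement was not tested.

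ENSRNOG00000020246 had the lowest share left in T24 controls among members with a mean of at least 5 CPM at T0 and T6. It was at 5.05, 4.54 and 4.41 CPM at T0 and at 6.45, 8.09 and 7.34 CPM in T6 controls. In T12 controls it was at 4.37, 4.08 and 3.84 CPM and in T24 controls at 2.31, 2.86 and 2.32 CPM. It therefore ended below its starting level in each T24 control library, a share of -1.40. With sepiapterin it also fell at each step, from 6.98, 7.86 and 6.92 CPM at T6 to 4.50, 5.76 and 4.97 CPM at T12 and 4.0, 3.65 and 3.10 CPM at T24. Both steps of the sepiapterin course passed edgeR's quasi-likelihood test with Benjamini-Hochberg adjustment over all genes tested, called below 0.05. The log2 fold changes were -0.49 ± 0.12 (SE, adjusted p = 0.0194) from T6 to T12 and -0.49 ± 0.14 (adjusted p = 0.0192) from T12 to T24. The first was lost without T6 sepiapterin replicate 1 or 2 or T12 sepiapterin replicate 1 or 3. The second was lost from the 2 groups alone and without T12 sepiapterin replicate 2 or T24 sepiapterin replicate 2 or 3. The treated libraries were above all T24 controls and, at T12, above the T12 controls they were tested against. T12 sepiapterin replicate 1 was, however, below both repeated T12 controls. Neither difference was called, at 0.31 ± 0.13 (edgeR adjusted p = 0.24) at T12 and 0.51 ± 0.16 (edgeR adjusted p = 0.0616) at T24. The T24 difference was called in 1 alternative fit.

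ENSRNOG00000000245 was back at T0 without standing so far below it. Its T0 values were 7.80, 6.71 and 6.57 CPM, its T6 control values 11.3, 12.5 and 12.1 CPM and its T24 control values 6.20, 5.83 and 7.12 CPM. The T24 values overlapped those of T0, and the share left was -0.18. With sepiapterin at T24 it was at 8.0, 7.59 and 7.49 CPM, a share of 0.17, and no T24 difference by treatment was called for it.

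At the other end of the order, ENSRNOG00000016678 had a higher group mean at each later time. Its T0 values were 15.4, 9.17 and 6.62 CPM and its T6 control values 22.2, 19.6 and 21.9 CPM. It stood at 25.8, 28.8 and 30.3 CPM in T12 controls and at 35.1, 33.6 and 33.4 CPM in T24 controls, 3.27 times T0. No T24 library overlapped with any T6 library. From the repeated T12 controls to T24 controls, within the second library batch if the titles are right, the log2 fold change was 0.05 ± 0.07. That control step was not called (edgeR adjusted p = 0.684), and 1 of 12 fits called it. With sepiapterin it was at 18.0, 20.4 and 19.7 CPM at T6, 26.8, 29.0 and 26.9 CPM at T12 and 38.1, 37.1 and 38.5 CPM at T24. The sepiapterin step from T12 to T24 was called at a log2 fold change of 0.48 ± 0.15 (edgeR adjusted p = 0.0427) that was lost by library size alone, by DESeq2, with no filter and without any 1 of the 6 libraries, and the step from T6 to T12 was not, at 0.54 ± 0.15 (edgeR adjusted p = 0.0567).

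ENSRNOG00000000341 had the highest share left in T24 controls among members with a mean of at least 5 CPM at T0 and T6, 1.71. It was at 12.9, 7.19 and 5.47 CPM at T0, 12.9, 13.8 and 13.7 CPM in T6 controls and 20.3, 18.2 and 17.4 CPM in T24 controls. Its T0 replicate 1 lay next to the lowest T6 control value, and the other 2 T0 libraries far below.

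ENSRNOG00000011427 was near its T6 control level in T24 controls. It was one of the 2 members with the largest ratio among those with at least 5 CPM, with 52.7, 31.0 and 30.7 CPM at T0 and 102, 101 and 104 CPM in T6 controls. At T24 the controls were at 101, 96.3 and 97.1 CPM and the sepiapterin libraries at 112, 115 and 112 CPM. The T24 sepiapterin libraries were above all T24 controls, by a log2 fold change of 0.20 ± 0.13 that was not called (edgeR adjusted p = 0.407). From T6 to T12 with sepiapterin the change was 0.31 ± 0.12, not called (edgeR adjusted p = 0.162). From the repeated T12 controls to T24 controls it was called lower (-0.19 ± 0.05, edgeR adjusted p = 0.0496), in 5 of 12 fits. ENSRNOG00000006526, the member with the most reads, was at 356, 233 and 211 CPM at T0, 445, 387 and 408 CPM in T6 controls and 373, 419 and 431 CPM in T24 controls, so that T24 overlapped T6. ENSRNOG00000014530, second in reads, went from 111, 133 and 138 CPM at T0 to 201, 190 and 185 CPM in T6 controls, 153, 155 and 159 CPM in T12 controls and 160, 178 and 185 CPM in T24 controls.

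ENSRNOG00000014948 had by far the largest ratio, 21.6, and is described because of that value, after it was seen. It was nearly silent at T0, with 5, 3 and 5 reads (0.226, 0.145 and 0.221 CPM), and reached 4.80, 4.10 and 3.88 CPM in T6 controls. Pooled over libraries, 13 reads at T0 and 301 in T6 controls give a rate ratio of 21.5 (95% exact interval 12.4 to 40.8, counting error only). It was at 4.27, 5.35 and 5.11 CPM in T12 controls and at 2.26, 0.826 and 0.678 CPM in T24 controls, where replicate 1 was well above the others. Even so, each T24 control library was above each T0 library.

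**Figure D4:**
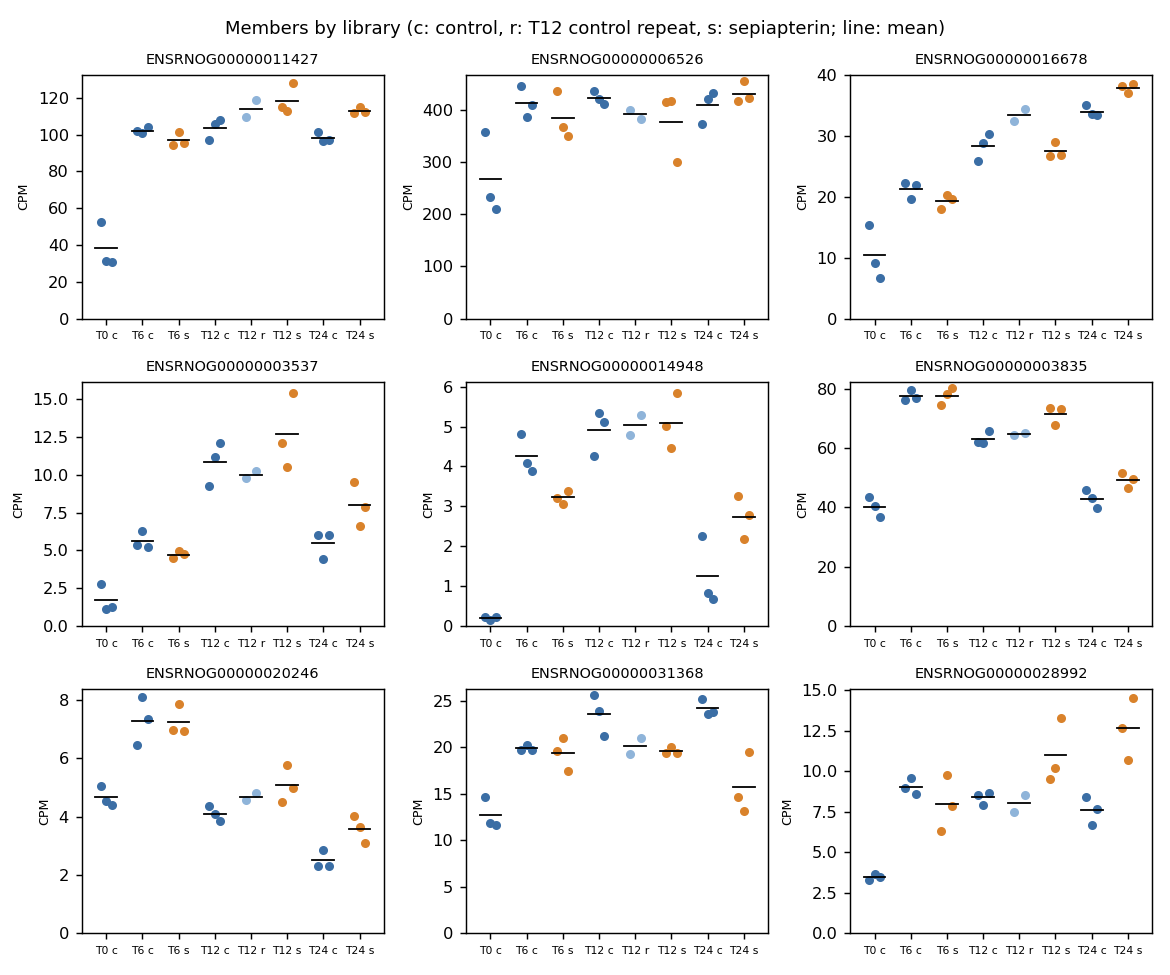
CPM in each library (points) and group mean (line) for 9 members, by group from T0 control to T24 sepiapterin, each vertical axis starting at 0. The first row shows members still near or above their T6 level at T24, ENSRNOG00000003537 and ENSRNOG00000014948 are highest at T12, and ENSRNOG00000003835 and ENSRNOG00000020246 are near or below T0 at T24 in controls.

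Within the treated series, the step from 6 to 12 hours used no library of the choice and lay within the first library batch. Of the 130 members, 11 were called (8.46%), 6 higher and 5 lower, against 4.37% of all genes tested, of which 2.89% were higher and 1.49% lower. The median change of the members was -0.02 on the log2 scale and that of all genes -0.01. The split depended on scaling. With library size alone in place of edgeR's TMM factors, 3 members were higher and 7 lower, and all genes went from 405 higher and 209 lower to 282 and 397. Without T6 sepiapterin replicate 1, 2 or 3 the members called were 5, 6 and 7, and without T12 sepiapterin replicate 3 they were 3.

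The 2 members with the smallest p among those that rose in this step gained a second time after their first rise. ENSRNOG00000003537 was at 4.46, 4.96 and 4.75 CPM at T6 and 12.1, 10.5 and 15.5 CPM at T12 with sepiapterin (log2 fold change 1.45 ± 0.19, edgeR adjusted p = 0.000461). Controls went the same way, from 2.80, 1.11 and 1.24 CPM at T0 through 5.34, 6.28 and 5.22 CPM at T6 to 9.28, 11.2 and 12.1 CPM at T12. ENSRNOG00000011861 went from 5.03, 5.08 and 5.16 CPM to 8.75, 8.44 and 10.7 CPM (log2 fold change 0.90 ± 0.13, edgeR adjusted p = 0.000534). In neither gene did the T6 and T12 libraries overlap.

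The 2 with the smallest p among those that fell gave up part of the rise. ENSRNOG00000017072 was at 70.1, 72.7 and 73.6 CPM at T6 and 51.0, 54.6 and 57.6 CPM at T12 with sepiapterin (log2 fold change -0.38 ± 0.06, edgeR adjusted p = 0.0018). It stayed near that level at T24, at 53.1, 46.8 and 53.1 CPM, above its T0 values of 44.5, 40.5 and 37.5 CPM in each library. ENSRNOG00000026447 went from 38.7, 40.1 and 40.9 CPM to 31.0, 33.4 and 29.9 CPM (log2 fold change -0.32 ± 0.06, edgeR adjusted p = 0.00711), and its call was lost without T12 sepiapterin replicate 3.

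From 12 to 24 hours most of the called members fell. With sepiapterin 25 of 130 were called (19.2%), 4 higher and 21 lower, against 12.6% of all genes tested. Higher calls made up 7.21% of all genes and lower calls 5.43%, so that all genes leaned the other way, with 1012 higher and 762 lower. The median change was -0.11 on the log2 scale for the members and -0.01 for all genes. In all, 93 of the 130 members had a negative estimate, while 48.2% of all genes had a positive one. By library size alone the members split into 3 higher and 24 lower and all genes into 848 and 982. The T12 and T24 sepiapterin libraries are of different library batches by label, so time and batch cannot be told apart in this step. Without T12 sepiapterin replicate 1 the members called were 15, and without T24 sepiapterin replicate 1 or 2 they were 16 and 14.

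The control step was tested between T24 controls and the 2 repeated T12 controls, within the second library batch if the titles are right. Of the 130 members, 16 were called (12.3%), 3 higher and 13 lower, against 5.54% of the 13653 genes tested, among which 3.09% were higher and 2.45% lower. The median change was -0.03 for members and -0.00 for all genes. By library size alone the members split into 1 higher and 16 lower and all genes into 273 and 519 in place of 422 and 335, and DESeq2 called 7 members higher and 6 lower. DESeq2 gave no adjusted p to 51 of the 130 members in this step, 5 of the 13 lower ones among them. With the T12 libraries taken by file header, 7 members were called (5.38%, against 0.58% of all genes), 2 higher and 5 lower. With no filter on low counts there were 26 (20%, against 6.4%). Without repeat replicate 1 or 2 there were 2 calls in each case, and without T24 control replicate 1, 2 or 3 there were 26, 6 and 5.

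These 2 steps compare no library in common. Both fits included both T24 groups, so their estimates of the spread are not separate. Of the 21 members lower with sepiapterin, 8 were also called lower in controls, which is 38.1% of the first list and 61.5% of the 13 in the second. Of the 21, 20 had a negative estimate in controls, and of the 13, all 13 had one with sepiapterin. ENSRNOG00000009265 was the single member called higher in both. No member was called in opposite directions in the 2 series.

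**Figure D5:**
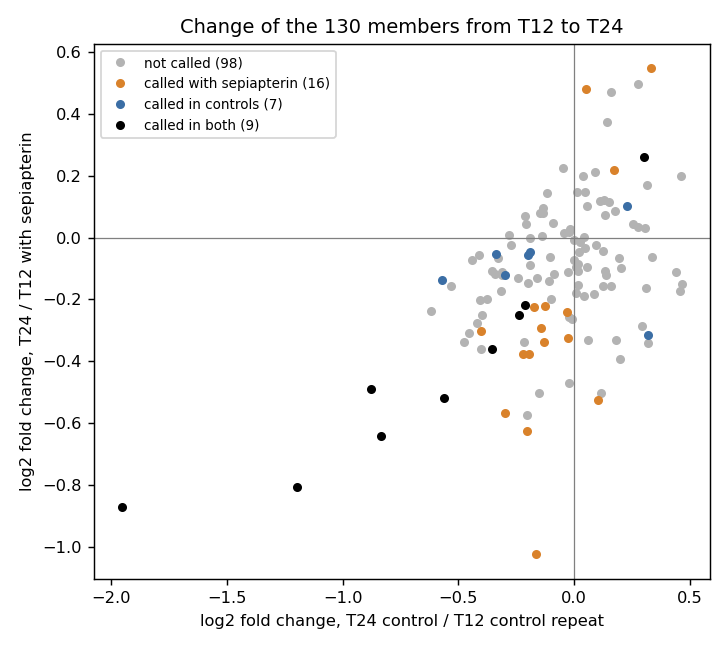
Log2 fold change from T12 to T24 in controls (horizontal, T24 control over repeated T12 control) and with sepiapterin (vertical) for each of the 130 members, coloured by where the change was called. The 9 members called in both series lie in the lower left, 8 of them, and the upper right, 1.

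ENSRNOG00000003835 carried the smallest p of this fall in both series. It stood at 43.3, 40.4 and 36.8 CPM at T0 and at 76.1, 79.5 and 76.8 CPM in T6 controls. With sepiapterin it was at 74.5, 78.0 and 80.2 CPM at T6, 73.5, 67.7 and 73.3 CPM at T12 and 51.4, 46.6 and 49.5 CPM at T24. The fall from T12 was -0.52 ± 0.06 on the log2 scale (edgeR adjusted p = 1.5e-05). The repeated T12 controls were at 64.3 and 64.9 CPM and the T24 controls at 45.7, 43.2 and 39.7 CPM, a fall of -0.56 ± 0.07 (edgeR adjusted p = 0.000213). The T24 controls overlapped T0, and the T24 sepiapterin libraries were all above it. Each alternative fit of either step called this gene.

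ENSRNOG00000047300, a gene with few reads, fell below where it began in controls. It was at 3.47, 3.52 and 3.62 CPM at T0 and 6.23, 4.78 and 5.03 CPM in T6 controls. In the repeated T12 controls it was at 5.59 and 5.68 CPM and in T24 controls at 2.21, 2.64 and 2.37 CPM (log2 fold change -1.20 ± 0.17, edgeR adjusted p = 0.001). With sepiapterin it went from 5.13, 4.55 and 6.55 CPM at T12 to 3.55, 2.59 and 2.99 CPM at T24 (log2 fold change -0.81 ± 0.16, edgeR adjusted p = 0.00182). As with ENSRNOG00000020246, its T24 control libraries were all below all T0 libraries. How many of all genes showed this was not counted, and T0 entered the choice of members.

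The second gain of ENSRNOG00000003537 ended in the same interval, in which ENSRNOG00000014948 fell too. With sepiapterin ENSRNOG00000014948 had also been called higher from T6 to T12 (log2 fold change 0.69 ± 0.20, edgeR adjusted p = 0.047). That call was made in 7 of 13 fits. ENSRNOG00000003537 fell to 9.52, 6.59 and 7.90 CPM with sepiapterin (log2 fold change -0.64 ± 0.18, edgeR adjusted p = 0.0244) and from 9.79 and 10.2 CPM to 6.05, 4.46 and 5.99 CPM in controls (-0.84 ± 0.15, edgeR adjusted p = 0.006). ENSRNOG00000014948 fell by 0.87 with sepiapterin (SE 0.21, edgeR adjusted p = 0.00911) and by 1.95 in controls (SE 0.31, edgeR adjusted p = 0.006). Without repeat replicate 1 or 2 both genes lost their control call, and DESeq2 gave neither an adjusted p there. With sepiapterin ENSRNOG00000003537 lost its call without T12 sepiapterin replicate 1 or 3 or T24 sepiapterin replicate 2 or 3, and ENSRNOG00000014948 without T24 sepiapterin replicate 2. ENSRNOG00000003537 nevertheless ended 3.21 times above T0 in controls and 4.67 times with sepiapterin.

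Of the members that rose again after 12 hours, ENSRNOG00000037886 went from 7.53, 7.79 and 8.16 CPM to 11.3, 12.7 and 9.96 CPM with sepiapterin (log2 fold change 0.55 ± 0.14, edgeR adjusted p = 0.015). ENSRNOG00000009265 went from 27.4, 27.2 and 29.2 CPM to 34.0, 31.7 and 33.2 CPM with sepiapterin (0.26 ± 0.07, edgeR adjusted p = 0.0208) and from 23.7 and 24.1 CPM to 28.9, 29.3 and 28.7 CPM in controls (0.30 ± 0.07, edgeR adjusted p = 0.02). In both genes the later libraries were above all the earlier ones. The first lost its call without T12 sepiapterin replicate 1 or T24 sepiapterin replicate 1 or 2. The second lost it with sepiapterin without T12 sepiapterin replicate 1 or 2 or T24 sepiapterin replicate 1, and in controls by file header or without either repeat or T24 control replicate 2 or 3. ENSRNOG00000014530 was also called higher in controls (0.23 ± 0.06, edgeR adjusted p = 0.0411), a call lost by library size alone, by file header, and without either repeat or T24 control replicate 2 or 3.

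At 12 hours sepiapterin against control gave no called member by edgeR, against 0.0214% of all genes tested, which was 3 genes. At an unadjusted p under 0.05 there were 26 members (20.0%, against 15.9% of all genes), and DESeq2 called 2 members. The estimates leaned upwards, 83 of 130 being positive (63.9%, against 51.2% of all genes), with a median of 0.08 for members and 0.00 for all genes on the log2 scale. The 2 members called by DESeq2, named after their values were seen, were ENSRNOG00000017060, at 0.45 ± 0.10 in edgeR (adjusted p = 0.0815), and ENSRNOG00000012702, at -0.24 ± 0.06 (adjusted p = 0.0851). ENSRNOG00000017060 was also called by edgeR from the 2 groups alone and without T12 control replicate 3.

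At 24 hours 6 of 130 members were called (4.62%), 3 higher and 3 lower, against 4.17% of all genes tested (2.07% higher and 2.09% lower), a share close to the background. The median difference was 0.01 on the log2 scale for both members and all genes. ENSRNOG00000028992 was at 8.41, 6.66 and 7.69 CPM in controls and 12.7, 10.7 and 14.5 CPM with sepiapterin (log2 fold change 0.73 ± 0.14, edgeR adjusted p = 0.0109). Its T0 values were 3.29, 3.67 and 3.44 CPM and its T6 control values 8.94, 9.59 and 8.59 CPM, so the treated libraries ended above the T6 range and the controls below it. ENSRNOG00000014948, at the control values above, was at 3.27, 2.18 and 2.79 CPM with sepiapterin (1.11 ± 0.28, edgeR adjusted p = 0.028). The T24 control replicate 1 of that gene overlapped the treated libraries.

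Among those lower with sepiapterin, ENSRNOG00000031368 was at 25.2, 23.6 and 23.9 CPM in controls and 14.7, 13.2 and 19.5 CPM treated (log2 fold change -0.62 ± 0.11, edgeR adjusted p = 0.00501). From 14.7, 11.8 and 11.7 CPM at T0 it had risen to 19.8, 20.3 and 19.7 CPM in T6 controls. Controls therefore ended above T6 and 2 of the 3 treated libraries within the T0 range. ENSRNOG00000025189 was at 12.0, 11.6 and 12.7 CPM in controls and 7.95, 10.4 and 10.1 CPM treated (-0.35, edgeR adjusted p = 0.0406). The groups did not overlap in either gene.

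These T24 calls rested on few libraries. Without T24 sepiapterin replicate 1 no member was called by edgeR, without T24 control replicate 2 there was 1, and without T24 control replicate 3 or T24 sepiapterin replicate 2 there were 2. From the 2 groups alone there were 3. The call of ENSRNOG00000025189 was lost in each of these fits and without T24 control replicate 1, and that of ENSRNOG00000028992 without T24 control replicate 2 or T24 sepiapterin replicate 1. ENSRNOG00000014948 lost its call in all of these 5 fits, and ENSRNOG00000031368 without T24 sepiapterin replicate 1.

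Whether sepiapterin acted differently at the 2 times was tested as the difference of its effects at T24 and T12. No member was called by edgeR, where 0.235% of all genes were. With the T12 libraries taken by file header no member was called either, against 1.02% of all genes. At an unadjusted p under 0.05 there were 15 members (11.5%, against 12.8% of all genes), and DESeq2, which gave no adjusted p to 47 members, called 1. Without T24 control replicate 1 there was 1 call by edgeR, and without T24 sepiapterin replicate 3 there were 5.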

How the data were processed

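The authors deposited raw read counts per Ensembl gene for 23 libraries made with TruSeq Stranded mRNA reagents from total RNA, one file per library. The submitters' processing notes name cutadapt 1.8, STAR 2.5.2b, HTSeq 0.6.1 and the build Rnor_6.0. For the annotation release and the strand setting of the counting no value is stated in these sources, and reads of overlapping or antisense genes may not be told apart. Rows that name no gene were left out: reads outside genes were 14.8% to 17.1% of each file's total, reads at several places 23.5% to 25.0% and ambiguous reads 0.22% to 0.27%.

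CPM were computed from these counts as reads per 1000000 reads in genes. Tests were run on the counts with edgeR 4.0.16 in R 4.3.3 (TMM factors, filterByExpr, robust quasi-likelihood fit, Benjamini-Hochberg adjustment over all genes tested, called below 0.05), in one fit of 21 libraries and 7 groups. The repeated T12 controls were left out of that fit and tested with both T24 groups in a second one. DESeq2 1.42.0 was an alternative, and so were other scaling, no filter, the compared groups alone, T12 libraries by file header or summed, and leaving out each library. The test of the difference between the T24 and T12 effects was added after the data were seen.

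The members and lists were chosen with earlier results of these data known. Named genes were, by rule, the largest ratios and highest CPM, the highest and lowest shares left at T24 and the called members with the smallest p. As no identifier had a symbol, at most 2 were named in each direction per comparison. Promoter and miRNA sequences were not used here for the same reason.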

Additional observations from a re-analysis of the deposited data

How the results depend on the processing

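No paired analysis was possible because the replicate numbers only name samples and the groups compared share no sample number in the labels, apart from samples 10 and 11, which recur among T12 controls and their repeats. The choice of the set depended most on its limit and on 1 library: 784 genes passed under a looser fold limit and 14 at 2-fold, 95 with TMM-scaled CPM, and between 122 and 224 with a T0 or T6 control library left out. With T6 sepiapterin in place of T6 control as reference, the median share left at T12 was 0.81 in controls and 0.92 with sepiapterin.

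For sepiapterin at T12, DESeq2 called 2 members and 227 genes, the 2 groups alone 1 and 16, grouping by file header 10 genes and no filter 66 genes. At T24 the 2 groups alone called 3 members and 196 genes. From T6 to T12 with sepiapterin the 2 groups alone called 1035 genes. For T24 control against the repeats, no filter called 26 members and 1256 genes, grouping by file header 7 and 79, and the 2 groups alone 1434 genes. DESeq2 called 1 member for the difference of the effects.

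With 1 library left out, the members called ranged from 0 to 1 at T12 (0 to 309 of all genes), 0 to 8 at T24 (11 to 1463), 3 to 9 from T6 to T12 with sepiapterin (98 to 561), 14 to 25 from T12 to T24 with sepiapterin (720 to 2222), 2 to 26 in controls (22 to 1208) and 0 to 5 for the difference of the effects. Members back at T0 ranged from 5 to 15 in T12 controls, 1 to 8 in T12 sepiapterin, 10 to 22 in T24 controls and 13 to 25 in T24 sepiapterin. Members still at T6 ranged, in that order, from 33 to 41, 48 to 61, 28 to 36 and 33 to 41, and the median share left from 0.73 to 0.77, 0.84 to 0.88, 0.54 to 0.67 and 0.60 to 0.65. The 58 called changes of single members kept their sign in each alternative run, while the members' split of calls turned from more higher to more lower from T6 to T12 with sepiapterin by library size, and the reverse in the control step by DESeq2. The median member difference at T24 was 0.01, and -0.00 without T24 sepiapterin replicate 3. The cause of these moves was not tested. With 3 libraries or fewer a group, depth of about 5 CPM or less limits the reading of single members.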
